A study of Homo sapiens with 3 samples.

Results

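Expression of 10 genes of the selenoprotein system was examined in HEK293T cells: SELENOP, GPX1, GPX4, SELENOW, SELENOH, SELENOK, SELENOS, SELENOT, SEPHS2 and SECISBP2. They were found as gene symbols on chromosomes, 10 of 60609 gene models there and of 67008 in all. SELENOP was chosen because it was lower with both hairpins in these libraries, so its difference from the control is given below as a description with no test. The other 9 genes were listed for their function, with earlier results of these data known. All 10 had enough counts to be tested, among 17713 genes tested.

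The study asked, by its title, how DDX24 bears on the transcription of HO-1. HEK293T is a line derived from human embryonic kidney into which the large T antigen of SV40 was introduced. The control culture received lentivirus with the pLKO.1 vector (genotype WT, 1 library). The knockdown cultures received pLKO.1 viruses carrying short hairpin RNAs against DDX24, an RNA helicase gene, named shDDX24-1 and shDDX24-2 (hairpin 1 and hairpin 2 below, 1 library each). All 3 were infected at 5 particles per cell with 8 µg/mL polybrene, were labelled 72 hr, and were sequenced as poly(A)-selected RNA. Separate cultures are not stated in the labels, so a p-value here measures the spread between these libraries alone, which may be technical. Each hairpin is 1 library with no repeat of its own.

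Selenoproteins contain selenocysteine, an amino acid inserted at a UGA codon that would otherwise end translation. Insertion needs a stem-loop in the 3′ end of the mRNA, the protein SECISBP2 that binds this stem-loop, a dedicated elongation factor and a tRNA charged with selenium donated by selenophosphate synthetase, SEPHS2. When selenium is scarce, some selenoprotein mRNAs, GPX1 and SELENOW among them, are degraded at the UGA codon while others such as GPX4 are spared. SELENOP is the secreted protein that carries selenium from the liver to other organs, which take it up through the receptors LRP8 and LRP2.

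Promoters are shown for SELENOP, the gene chosen for its lower counts, and for the other gene of the 10 with a TATA box. RefSeq promoter windows (build GRCh38.p14, 250 bases before to 50 after an annotated start) were found for all 10 genes, 13 windows in all. The stretches below are the 250 bases before the start, 5′ to 3′ on the strand of the gene. SELENOP lies at chr5:42811893-42812142 on the minus strand and SEPHS2 at chr16:30445875-30446124 on the minus strand. The SELENOP stretch lies inside the gene model whose reads were counted (42799880 to 42887392). That model also reaches upstream of the start used here. Capitals mark matches to the motifs described below the sequences.
SELENOP: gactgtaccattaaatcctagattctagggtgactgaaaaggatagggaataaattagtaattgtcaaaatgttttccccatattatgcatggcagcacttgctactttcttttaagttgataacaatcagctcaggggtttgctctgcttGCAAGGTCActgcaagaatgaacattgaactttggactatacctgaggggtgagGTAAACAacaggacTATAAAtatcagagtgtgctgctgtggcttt
SEPHS2: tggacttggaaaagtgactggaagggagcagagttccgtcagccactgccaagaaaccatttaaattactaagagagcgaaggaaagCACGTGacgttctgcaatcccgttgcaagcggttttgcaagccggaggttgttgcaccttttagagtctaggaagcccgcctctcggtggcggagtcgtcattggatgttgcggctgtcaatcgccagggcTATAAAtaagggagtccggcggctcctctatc

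In SELENOP the capitals mark, in order, the core of the antioxidant response element (TGACNNNGC, here on the opposite strand), the FOXO motif GTAAACA and a TATA box (TATAAA). In SEPHS2 they mark an E-box (CACGTG) and a TATA box. Both strands were searched over the full windows, and none of the marked matches overlap. The FOXO motif was found in SELENOP and in 0 of the other 9 genes, against 3.42% of 35116 windows of all genes. The TATA box was found in SELENOP and SEPHS2, against 11.5% of all windows. The antioxidant core was found in SELENOP, SELENOK and SECISBP2 (13.3% of all windows), and the E-box in GPX1, SELENOH, SELENOS, SEPHS2 and SECISBP2 (7.26%). Counted by window, of the 13 windows 1 held the FOXO motif, 2 the TATA box, 3 the antioxidant core and 5 the E-box. These matches are letters in a window and not measured binding. The SELENOP window was 42.0% G and C, below the median of 58.7% over all windows, and 14.9% of windows were lower still. The windows of the other 9 genes ranged from 53.7% in SEPHS2 to 79.0% in a GPX4 window.

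Depth was 52198744 counts for the control, which was the deepest, and 36738685 and 37828270 counts for hairpin 1 and hairpin 2. The target DDX24 had a listed count of 0 everywhere, also in the control, so neither the knockdown nor the labels of the libraries could be checked with it. Of 7 kidney lineage markers 4 had at least 10 counts in every library, SIX2 the highest, while CDH16 was at 0 in all 3. The 6 hepatocyte markers summed, as counts scaled by depth (CPM), to 1.44 for the control and to 1.14 and 2.14 CPM with hairpin 1 and hairpin 2, with SERPINA1 at 0 throughout. The 5 macrophage markers summed to 0.843, 0.871 and 0.820 CPM.

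Levels between genes are compared as CPM per kilobase of the longest protein-coding transcript in GENCODE release 29. In the control the order ran from GPX4, the enzyme that reduces lipid peroxides in membranes, at 280.0 CPM per kb, and GPX1, the abundant cytosolic glutathione peroxidase, at 201 CPM per kb, to SELENOP at 6.15 CPM per kb. Between them lay SEPHS2 (126), SELENOW (43.7), SELENOS (36.2), SELENOT (32.4), SELENOK (28.9), SELENOH (19.1) and SECISBP2 (18.4 CPM per kb). SELENOP was the lowest of the 10 in every library. SELENOH and SECISBP2 lay close together, at 22.3 and 20.7 CPM per kb with hairpin 1 and at 23.0 and 21.1 with hairpin 2. The transcript length is that of an annotated model and not of the transcripts made in these cells.

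**Figure D1:**
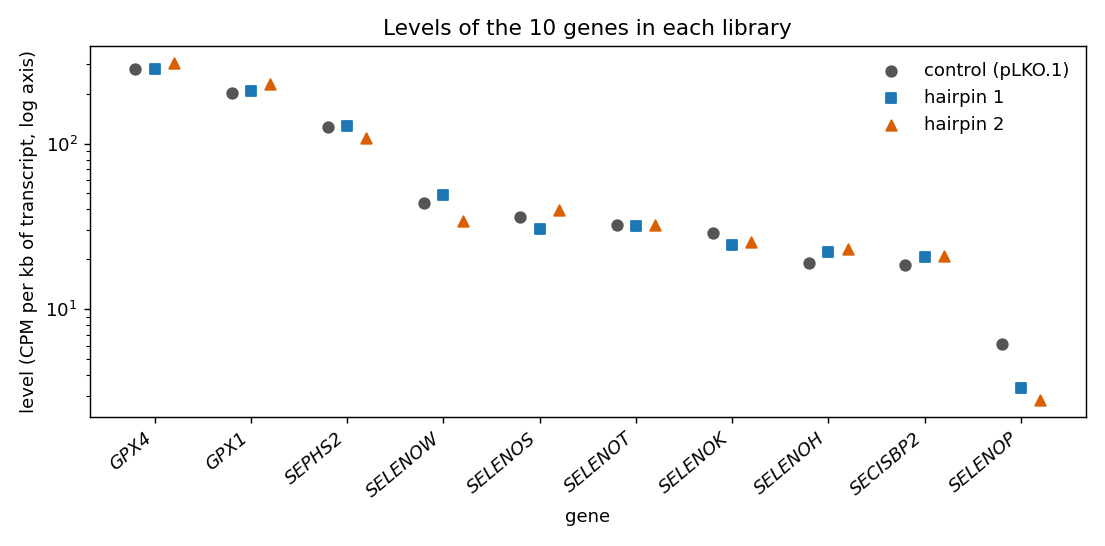
Level of each gene in each library, in CPM per kb of transcript on a log axis, ordered by the control. Each symbol is 1 library. GPX4 leads at 280.0 CPM per kb in the control, and SELENOP is the lowest gene in all 3 libraries, with both hairpin libraries below the control.

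SELENOP (ENSG00000250722.6, GRCh38 chromosome 5, 42799880 to 42887392, minus strand) had 728 counts in the control library, 279 in the hairpin 1 library and 236 in the hairpin 2 library. Scaled to library size this was 13.8, 7.55 and 6.36 CPM. Both hairpin libraries were near 50% of the control or under it, at 54.7% and 46.1%. That both lie below the lone control, as they do for 32.0% of all genes tested, is the pattern SELENOP was chosen for. For hairpin 1 the log2 ratio was -0.87, with a 95% exact interval from the counts of -1.07 to -0.67, and for hairpin 2 it was -1.11 (-1.33 to -0.90). Across both, the knockdown mean was 6.95 ± 0.84 CPM (SD, n = 2) and the log2 fold change -0.99. These intervals cover counting error only, and PCR copies without molecular identifiers are not independent molecules. In such bulk RNA, fewer cells that express a gene and less RNA per cell cannot be told apart.

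With both hairpins SELENOP was at least 1.5-fold below the control, as were 2.50% of all genes tested; this contrast chose the gene, so nothing is read from that share. By the smaller of its drops SELENOP ranked 7 of 10969 genes that reached 5 CPM, a cut that the control alone could meet. The rank comes from the same ratios that chose the gene, so nothing is read from it either. The hairpin libraries themselves were not separated for SELENOP, with a log2 ratio of hairpin 2 to hairpin 1 of -0.25 and an interval of -0.50 to 0.01. On the opposite strand 3 annotated genes overlap SELENOP. Of these, CCDC152 shares 2560 bases and had 1, 0 and 0 counts in the control, hairpin 1 and hairpin 2, and the 2 long noncoding RNA genes had 0 in every library. No SELENOP pseudogene or second gene model was listed.

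Genes were compared with SELENOP if their level reached 5 CPM, a cut that the control alone could meet. Of these, CDKN1A, HIST1H3E, SYTL5, MIR34AHG and HMOX1 had the pair of ratios nearest to that of SELENOP. Their distances were 0.10, 0.10, 0.15, 0.15 and 0.24 on the log2 scale over the 3 libraries. MIR34AHG and HIST1H3E reached 5 CPM in the control and in neither hairpin library, so the cut itself could favour genes below the control. CDKN1A, the cell cycle inhibitor p21, had a control level of 11.6 CPM and levels of 5.93 and 5.23 CPM with the hairpins. HMOX1, which encodes the heme oxygenase HO-1 named in the title of the study, was at 91.3, 49.2 and 50.03 CPM. Each of the 5 was below the control with both hairpins because the likeness was defined by those ratios. SYTL5, a synaptotagmin-like gene, was at 8.58, 5.11 and 4.18 CPM. MIR34AHG, from which miR-34a is processed, was at 6.63, 3.30 and 3.21 CPM. HIST1H3E, a histone H3 gene with near-identical copies, was at 5.09, 2.98 and 2.34 CPM and is uncertain for that reason.

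The other 9 genes lay closer to the control. With both hairpins 9 of the 10 genes, all but SELENOP, stayed within 1.5-fold of the control, as did 82.2% of all genes tested, and 7 stayed within 1.2-fold, against 51.4%. Of the 9, 2 were lower with both hairpins (32.0% of all genes tested), 4 were higher with both (31.9%) and 3 had opposite signs (36.1%), though GPX1 and GPX4 among the higher and SELENOT among the lower changed sign with 1 or both hairpins after removal of a trend on GC content and transcript length. Past 1.2-fold with both hairpins, SELENOP alone of the 10 was lower (7.94%) and 0 were higher (6.24%), and past 1.5-fold 0 were higher (1.28%); SELENOP was chosen on this contrast. Both counting intervals lay below 0 for SELENOP and SELENOK (9.13% of all genes) and above 0 for GPX1, SELENOH and SECISBP2 (10.2%). Both ratios of a gene share the control library. The median log2 ratios of the 9 genes were 0.02 with hairpin 1 and 0.13 with hairpin 2, beside 0.00 and -0.004 over all genes. By edgeR's quasi-likelihood test 0 of these 9 genes passed an adjusted p of 0.05, lower or higher, where 0.0113% of all genes were called lower and 0% higher. For the 9, the log2 fold changes ran from -0.21 to 0.25 with standard errors of 0.13 to 0.22, edgeR's adjusted p = 0.999 for each, and 0 were under an unadjusted p of 0.05 (3.90% of all genes). DESeq2 and limma-voom called 0 of them as well. Each gene has 1 residual degree of freedom, from the difference between the hairpins, and the lone control is assumed to vary alike. In edgeR that spread is drawn toward a trend over all genes, so the standard errors and p-values rest on all genes too.

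**Figure D2:**
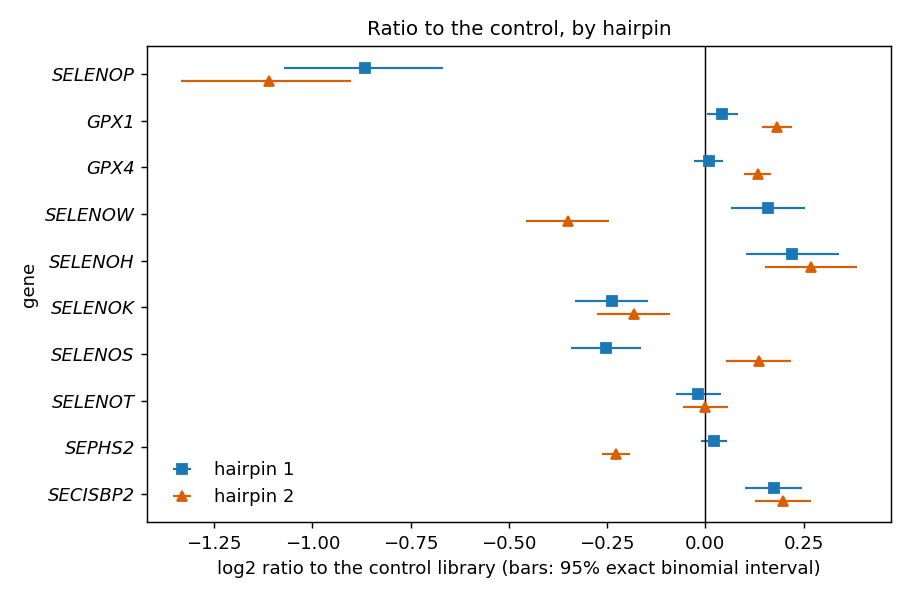
Log2 ratio to the control for each gene with hairpin 1 (squares) and hairpin 2 (triangles); bars are 95% exact binomial intervals of the counts, which cover counting error only. SELENOP lies at -0.87 and -1.11, and the other 9 genes lie between -0.35 and 0.27.

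Among the peroxidases, GPX1 (ENSG00000233276.5, chromosome 3, 49357176 to 49358358, minus strand) had 12218, 8816 and 9748 counts, or 231, 239 and 263 CPM in the control, hairpin 1 and hairpin 2. Its log2 ratios were 0.04 (0.004 to 0.08) and 0.18 (0.14 to 0.22). Both hairpin libraries were above the control by a small margin, but with a trend on GC content and transcript length removed the ratio with hairpin 1 turned to -0.06. The table lists GPX1 as a polymorphic pseudogene, a class for genes whose reading frame is intact in some people and not in others. Its processed pseudogene GPX1P1 on chromosome X had 1818, 1322 and 1427 counts, 14.88%, 14.996% and 14.64% of those of GPX1. That share was nearly the same in each library. How reads were divided between the copies was not tested, so the GPX1 level is uncertain.

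GPX4 (ENSG00000167468.17, chromosome 19, 1103926 to 1106791, plus strand) was at 281, 282 and 308 CPM in the control, hairpin 1 and hairpin 2. The hairpin 1 library was level with the control, with a log2 ratio of 0.01 (-0.03 to 0.04), and hairpin 2 was above it at 0.13 (0.10 to 0.17). Once the trend on GC and length was taken out these ratios were -0.10 and 0.08, so GPX4 had no direction that held for both hairpins. GPX1 and GPX4 are the genes of the 10 with the highest GC content in the transcript, 64.2% and 65.2%, where SELENOP has 38.1%.

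Among the small thioredoxin-like selenoproteins, SELENOH, a nuclear protein that binds DNA, had 1302, 1063 and 1102 counts, or 24.7, 28.8 and 29.7 CPM in the control, hairpin 1 and hairpin 2. Both hairpin libraries were above the control, at log2 ratios of 0.22 (0.10 to 0.34) and 0.27 (0.15 to 0.39). The gene models that overlap SELENOH, TMX2-CTNND1, BTBD18 and AP001931.1, had at most 2 counts in any library. SELENOW, a small cytosolic redox protein of muscle and brain, was at 38.8, 43.4 and 30.5 CPM. The hairpins lay on opposite sides of the control, at 0.16 (0.06 to 0.25) and -0.35 (-0.46 to -0.24). Over both hairpins the log2 fold change of SELENOW was -0.07, and leaving out either hairpin returned the ratio of the other, 0.16 or -0.35.

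Genes whose mRNAs are known to be sensitive to selenium supply had no common direction. Of GPX1, SELENOW, SELENOH and MSRB1, the methionine sulfoxide reductase, 1 was lower with both hairpins (32.0% of all genes), 2 were higher (31.9%) and 1 was mixed. Their median log2 ratios were 0.10 and 0.03, and 0 passed edgeR's test (lower or higher). After removal of the trend on GC and length, 1 in place of 2 was higher with both.

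The endoplasmic reticulum (ER) selenoproteins among the 10 were SELENOK, SELENOS and SELENOT. SELENOK, a membrane protein that works with the palmitoyl transferase ZDHHC6, was at 47.2, 40.01 and 41.6 CPM in the control, hairpin 1 and hairpin 2. Both hairpin libraries were below the control, at log2 ratios of -0.24 (-0.33 to -0.14) and -0.18 (-0.28 to -0.09). SELENOS, which takes part in the removal of misfolded proteins from the ER, was at 52.04, 43.7 and 57.2 CPM. It was below the control with hairpin 1, at -0.25 (-0.34 to -0.16), and above it with hairpin 2, at 0.14 (0.05 to 0.22).

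SELENOT, an ER thioredoxin-like oxidoreductase, was at 113, 112 and 113 CPM in the control, hairpin 1 and hairpin 2. It was the gene of the 10 with the smallest log2 fold change, -0.01 ± 0.13 (SE), and both counting intervals, -0.08 to 0.04 and -0.06 to 0.06, included 0. The sign of its ratios depended on the scaling, with 0.03 and 0.05 once the trend on GC and length was taken out. SERP1, an ER stress gene on the opposite strand, overlaps SELENOT by 354 bases and had 6410, 4205 and 5405 counts, so reads in that stretch are uncertain. A processed pseudogene on that strand, AC069236.1, had 3, 1 and 2 counts. SELENOTP1 on chromosome 9 had 101, 52 and 52 counts. Of all 9 pseudogene models of the 10 genes, GPX1P1 and SELENOTP1 were the ones above 5 counts in any library.

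Over all 8 ER selenoprotein genes, which include SELENOF, SELENOM, SELENON, SELENOI and DIO2, 6 were lower with both hairpins (32.0% of all genes), 1 was higher (31.9%) and 1 was mixed (36.1%). The medians were -0.17 and -0.11, and 0 passed edgeR's test (lower or higher, adjusted p = 0.999 for each). After removal of the trend on GC and length, 4 were lower with both and 2 higher. SELENOF, which binds a glycoprotein-folding sensor, was at 257, 223 and 235 CPM, and SELENOM, another ER thioredoxin-like protein, at 29.5, 27.1 and 23.7 CPM. SELENON, an ER selenoprotein of muscle that was named after its values were seen, was above the control with both hairpins at 95.9, 112 and 104 CPM, with log2 ratios of 0.22 (0.16 to 0.28) and 0.12 (0.06 to 0.18). DIO2, a deiodinase that activates thyroid hormone, had 17, 5 and 9 counts, too few to set its libraries apart. The genes of ER-associated degradation and palmitoylation that act with SELENOS and SELENOK had 5 of 7 tested members lower with both hairpins (32.0% of all genes), 0 higher (31.9%) and 0 called by edgeR. Their median log2 ratios were -0.14 and -0.08. SEL1L, the scaffold of the HRD1 ubiquitin ligase, was at 90.1, 77.999 and 58.8 CPM. SYVN1, the ligase HRD1 itself, was at 38.8, 35.98 and 34.04 CPM, and DERL2, a membrane protein of the same complex, at 41.3, 37.2 and 39.2 CPM.

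For selenium activation, SEPHS2, itself a selenoprotein, had 17000, 12085 and 10208 counts, or 322, 327 and 275 CPM. Hairpin 1 was level with the control, at a log2 ratio of 0.02 (-0.01 to 0.06), and hairpin 2 was below it, at -0.23 (-0.26 to -0.19). SEPHS1, the paralog without selenocysteine, named after its values were seen, was at 133, 125 and 136 CPM, with opposite signs for the hairpins under TMM scaling and ratios of -0.09 and -0.01 under library totals. SECISBP2, the binding protein of the stem-loop, was at 65.9, 74.3 and 75.6 CPM. Both hairpin libraries were above the control, at 0.17 (0.10 to 0.25) and 0.20 (0.13 to 0.27). Its paralog SECISBP2L, which also binds the stem-loop but is not known to drive decoding in human cells, was at 47.2, 42.0 and 38.5 CPM, below the control with both.

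Of the 12 other genes of selenocysteine synthesis and decoding that were tested, 3 were lower with both hairpins (32.0% of all genes), 2 higher (31.9%) and 7 mixed (36.1%), and 0 passed edgeR (lower or higher, adjusted p = 0.999 for each). The medians were -0.02 and -0.07. With library totals in place of TMM, 5 were lower and 1 higher. SARS, the seryl-tRNA synthetase that charges the selenocysteine tRNA with serine, was at 237, 220 and 219 CPM, and ALKBH8, which modifies that tRNA, at 59.7, 56.1 and 54.3 CPM. RPL30, a ribosomal protein that also binds the stem-loop, was at 585, 610.2 and 634 CPM, above the control with both. SEPSECS and PSTK, which turn the serine into selenocysteine and were named for that role after their values were seen, had opposite signs with the hairpins, at 13.0, 13.8 and 11.3 CPM and at 10.0, 8.31 and 11.4 CPM. The elongation factor gene EEFSEC had 6, 2 and 4 counts on chromosome 3 and was not tested; its model on another scaffold had 128, 84 and 82 counts. NCL, the nucleolar protein nucleolin, was named after its values were seen. It was at 2001, 2234 and 1042 CPM, above the control with hairpin 1 at a log2 ratio of 0.16 (0.15 to 0.17) and below it with hairpin 2 at -0.94 (-0.96 to -0.93).

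The human selenoprotein genes examined numbered 25, the 9 among the 10 genes above and 16 others. Of these, 21 were tested, and the 4 left out (DIO1, GPX2, GPX6 and SELENOV) had at most 4 counts in any library. With both hairpins 11 of the 21 were lower, SELENOP included, 5 higher and 5 mixed, where 32.0%, 31.9% and 36.1% of all genes were, and of those other than SELENOP 0 passed edgeR (lower or higher). Of the 21, 3 were at least 1.2-fold lower with both, where 7.94% of all genes tested were. These were SELENOP, chosen on this contrast, TXNRD3 and DIO2, and both counting intervals of DIO2 included 0. Among the 12 tested outside the 10 genes, 8 were lower with both (32.0% of all genes) and 2 higher (31.9%), with medians of -0.15 and -0.13.

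**Figure D3:**
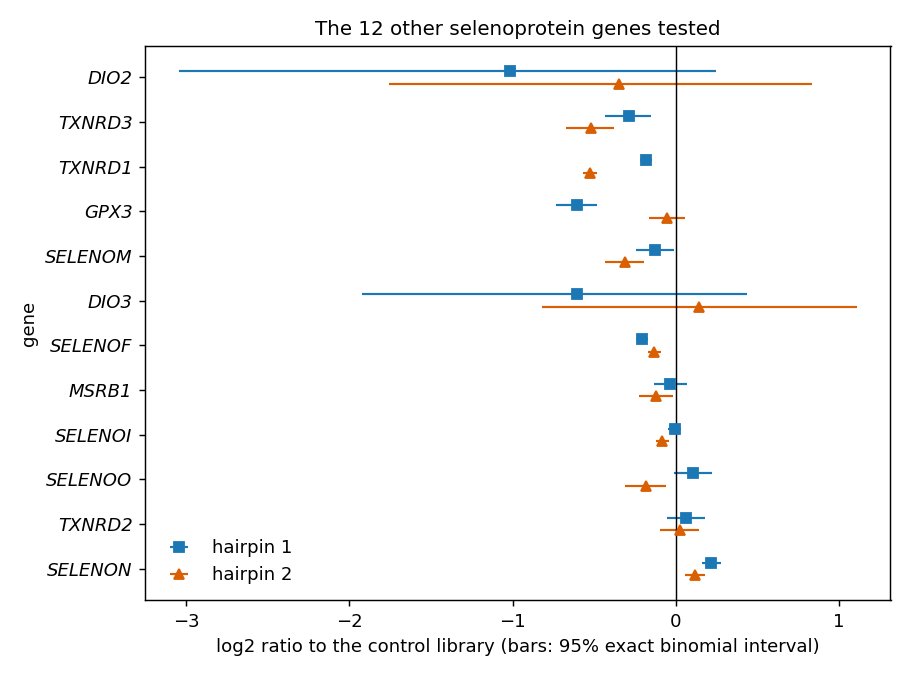
Log2 ratio to the control for the 12 other selenoprotein genes tested, with hairpin 1 (squares) and hairpin 2 (triangles), ordered by log2 fold change; bars are 95% exact binomial intervals of the counts. TXNRD3 and TXNRD1 lie below 0 with both hairpins, and GPX3 with hairpin 1 mainly. DIO2 has wide intervals, as has DIO3, which was named after its values were seen.

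The thioredoxin reductases differed among themselves. TXNRD1, the cytosolic enzyme, was at 269, 237 and 187 CPM, and TXNRD3, a form known from testis, at 21.5, 17.6 and 14.96 CPM, both below the control with each hairpin. TXNRD2, the mitochondrial enzyme, also named after its values were seen, was at 26.6, 27.8 and 27.1 CPM; its ratios of 0.06 and 0.02 became -0.04 and -0.01 after removal of that trend on GC and length. GPX3, the secreted peroxidase of plasma made in kidney, was named after its values were seen, as the other secreted selenoprotein. It was at 30.6, 20.1 and 29.5 CPM, low with hairpin 1 and near the control with hairpin 2, so it did not follow SELENOP in both libraries. GPX8, a peroxidase with cysteine in place of selenocysteine, was at 69.0, 62.7 and 66.8 CPM. Of other paralogs with cysteine, the methionine sulfoxide reductases MSRB2 and MSRB3 were at 9.53, 9.01 and 7.92 CPM and at 20.8, 23.2 and 27.4 CPM, on opposite sides of the control.

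**Figure D4:**
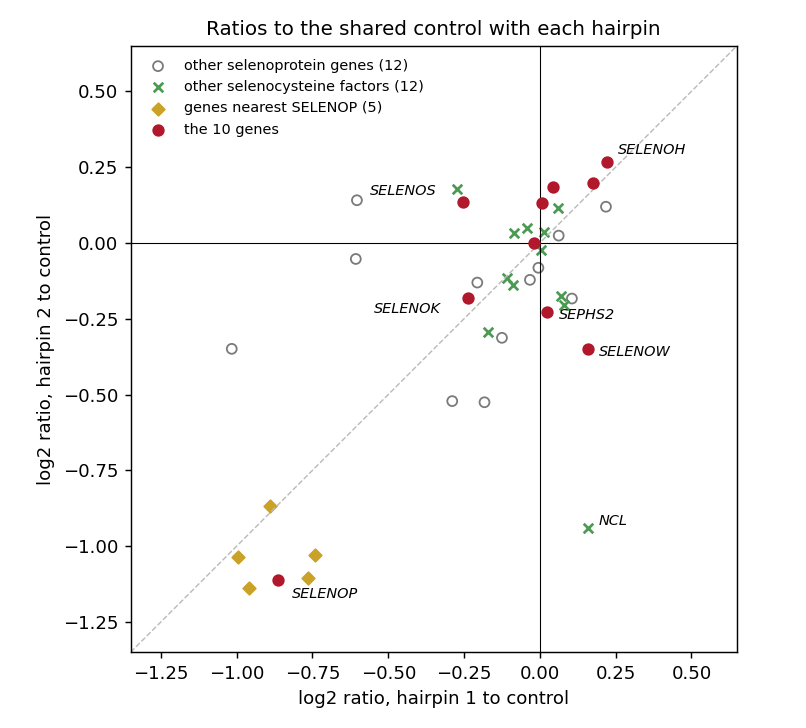
Log2 ratio to the control with hairpin 1 (x axis) and hairpin 2 (y axis) for the 10 genes, 12 other selenoprotein genes, 12 other selenocysteine factors and the 5 genes nearest to SELENOP; the dashed line marks equal ratios. Both axes share the control library. SELENOP lies at the lower left, apart from the other 9 genes, with the 5 genes chosen for nearness around it.

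The hairpin libraries were also compared with each other, a contrast that does not use the control. It has 1 library on each side and no test. Of the 10 genes, 1 was at least 1.2-fold lower with hairpin 2 than with hairpin 1 (SELENOW, log2 ratio -0.51, interval -0.62 to -0.40), where 22.1% of all genes were. SELENOS alone was at least 1.2-fold higher with hairpin 2, at 0.39 (0.29 to 0.48), where 13.8% of all genes were. The counting interval left out 0 for 5 of the 10 genes, SELENOW, SELENOS, SEPHS2, GPX1 and GPX4, against 42.6% of all genes. For SELENOP, SELENOH, SELENOK, SELENOT and SECISBP2 the hairpin libraries were not told apart at this depth.

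Selenoprotein P is taken up by LRP8, LRP2 and LRP1-family receptors, and 0 of the 3 receptor genes examined passed edgeR (lower or higher). LRP8 was at 36.2, 49.6 and 32.6 CPM, LRP2, the kidney receptor megalin, at 23.7, 23.2 and 26.5 CPM, and LRP1 at 82.8, 82.1 and 57.5 CPM. LRP8 and LRP2, named after their values were seen, had opposite signs with the hairpins, and LRP1 was below it mainly with hairpin 2.

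The regulators known to drive SELENOP in liver cells were present in part. FOXO1, a forkhead factor, was at 22.5, 26.1 and 26.9 CPM and FOXO3 at 70.8, 76.5 and 81.7 CPM. Both were above the control with each hairpin, as were 31.9% of all genes tested. Neither passed edgeR's test (adjusted p = 0.999 for each). Whether these factors bear on SELENOP in these cells was not tested. HNF4A, the hepatocyte nuclear factor, had 4 counts in each library, and the coactivator PPARGC1A was at 0 in all 3.

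Factors of nonsense-mediated decay, the pathway that degrades selenoprotein mRNAs at the UGA codon, had 3 of 10 lower with both hairpins (32.0% of all genes), 4 higher (31.9%) and 3 mixed (36.1%), with medians of -0.04 and 0.02 and 0 called by edgeR (lower or higher). The core factors UPF2 and UPF3B were at 106, 98.5 and 87.0 CPM and at 154, 144 and 137 CPM. SMG8 and SMG9, which regulate the kinase SMG1, were at 57.0, 47.1 and 54.4 CPM and at 38.7, 40.3 and 56.0 CPM. No common direction was seen in this list.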

How the data were processed

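The authors deposited whole-number read counts per gene, not normalized, for 3 libraries. Per the submitters' processing notes, the tools included STAR 2.7.3a and DESeq2 1.26 and the genome was GRCh38 (hg38). How reads were counted, whether by strand, and on which annotation is not given in the sources used here. Without strand, overlapping genes cannot be told apart.

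Genes were filtered with filterByExpr (minimum count 10), scaled by TMM and tested with edgeR 4.0.16 (glmQLFit with legacy = FALSE, glmQLFTest, R 4.3.3), adjusted by Benjamini-Hochberg over 17713 genes at 0.05. The script was tested on simulated data. CPM used TMM-scaled library sizes, and library totals for the cell type markers. Per-library log2 ratios used a prior count of 2. Intervals are exact Clopper-Pearson intervals at 95% and cover counting error only. One list symbol, SARS1, was found through its older form, SARS. Transcript lengths and GC content came from GENCODE 29.

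Members and gene lists were chosen with earlier results of these data known. Up to 4 genes per list were named, those with the largest smaller ratio of the same sign. Named too were the 5 genes nearest SELENOP among those that reached 5 CPM, which the control alone could meet. Tested genes named beside these are marked in the text as named after their values were seen. Alternatives were DESeq2 size factors, library totals, no count filter, DESeq2 1.42.0, limma-voom 3.58.1, the legacy fit, an adjusted p of 0.1, a prior count of 0.5, removal of a loess trend on GC and length, and leaving out each hairpin.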

Additional observations from a re-analysis of the deposited data

How the results depend on the processing

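Of the 9 genes other than SELENOP, 0 were called under DESeq2 size factors, library totals, no low-count filter, DESeq2, limma-voom, the legacy edgeR fit and an adjusted p of 0.1. Over the 6 alternatives with a test of their own the adjusted p of the 9 genes other than SELENOP ran from 0.625 to 1.0. The log2 ratio of GPX1 with hairpin 1 turned to -0.0608 when the GC and length trend was removed; the cause was not tested. The other selenoprotein genes higher with both hairpins numbered 1 with library totals and 1 with the trend removed, in place of 2. The other selenocysteine factors lower with both numbered 5 with library totals and 5 with no low-count filter, in place of 3, and those higher numbered 1 with library totals, in place of 2. Library totals moved the median of all genes with hairpin 2 to -0.05. With the trend removed SELENOP was at -0.83 and -1.07. Leaving out each hairpin gave log2 fold changes of -1.12 to -0.87 for SELENOP, -0.35 to 0.16 for SELENOW, -0.25 to 0.14 for SELENOS and -0.23 to 0.02 for SEPHS2, values with no test. With 1 control these are in effect the ratios of the remaining hairpin given above, and not a separate check. No paired analysis was possible because the control has 1 library, so the groups share fewer than 2 replicate numbers. With 279 and 236 SELENOP counts in the hairpin libraries, the difference between them of -0.25 on the log2 scale was not told from 0 at this depth.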
